A study of Mus musculus with 9 samples.

Results

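Skin of mice given bleomycin together with nitrate was compared with skin of healthy control mice. The comparison took the 3 bleomycin plus nitrate libraries and the 3 control libraries, 6 of the 9 libraries of the series, and the genes with at least 1 FPKM in at least 3 of these 6. That left 14057 of the 54532 genes in the table. FPKM is a read level scaled to gene length and library size. All 9 libraries came from biopsies of wild-type mice and were sequenced on a NovaSeq 6000. The controls were healthy and received no agent that the labels name. The treated mice had bleomycin, a DNA-breaking antibiotic given to mice as a model of scleroderma-like skin fibrosis, and nitrate therapy, which the series title calls topical. The remaining 3 libraries had bleomycin alone. They enter the fit, where they help set the spread behind every p-value, and are otherwise given as values beside the others. The sources used here do not give strain, age, dose, route of the drug, time of the biopsy or how many animals a library holds. A p-value here therefore reflects the spread among libraries, which may be technical. No library had nitrate without bleomycin, so the parts of the drug and of nitrate in a difference from control cannot be told apart.

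Skin consists of an epidermis of keratinocytes that renews and cornifies, a dermis of fibroblasts that secrete collagen, hair follicles that cycle between growth (anagen) and rest (telogen), and a layer of fat and thin muscle below. Fibrillar collagens are made as procollagens, which are hydroxylated and folded by chaperones in the endoplasmic reticulum, trimmed by proteases outside the cell and cross-linked by lysyl oxidases. A wounded or inflamed epidermis switches on keratins, small proline-rich proteins and late cornified envelope proteins that rebuild the barrier. ST2, the product of Il1rl1, binds the alarmin IL-33 and is carried by type 2 lymphocytes, regulatory T cells and mast cells, and nitrate can be reduced in tissue to nitrite and nitric oxide.

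The whole reads recovered from the table numbered 15804050 to 18352592 in a library, and a count of 0 allows up to 3 reads. The keratinocyte gene Krt5 (396 to 1285 FPKM in the 6 libraries), Krt14 (415 to 1818) and Col1a1 (740.5 to 3048) were abundant throughout. They are defining markers of epidermis and dermis. Ddx3y, a gene of the Y chromosome, had 12.4 to 21.6 FPKM in the 9 libraries, while Xist, expressed from the inactive X chromosome, reached at most 0.0304. The libraries differed in the level of hair keratin transcripts. The mean log2(FPKM + 1) of 32 hair keratin and keratin-associated protein genes was 0.20, 3.44 and 5.75 in control 1, 2 and 3 and 7.72, 5.48 and 8.16 in nitrate 1, 2 and 3, as nitrate names the bleomycin plus nitrate libraries. Control 1 stood apart with almost no hair keratin transcript, and control 3 lay above nitrate 2.

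limma's test, with Benjamini-Hochberg adjusted p under 0.05, called 1331 of the 14057 genes (9.47%). Of these, 573 were higher (4.08%) and 758 lower (5.39%) in bleomycin plus nitrate than in control, and 623 differed by at least 1 on the log2 scale (253 higher, 370 lower). With library totals in place of the authors' scaling, voom called 1058 higher and 600 lower, and the median difference over all genes moved from 0.014 to 0.173. The filter fixed the direction of 59 called genes that reached 1 FPKM only in nitrate and of 63 that did so only in control. Groups did not overlap for 35.3% of all tested genes (17.3% higher, 18% lower), nor for any of the 1331 called genes. The shares over all tested genes, called or not overlapping, are the background for the list counts below. The number of calls rested on single libraries: with control 1 left out of the fit (without control 1) 118 genes were called, with 58 without control 2 and 185 without nitrate 3, against 857 without control 3, 549 without nitrate 1 and 2935 without nitrate 2. With only the 6 libraries compared in the fit 357 genes were called (132 higher, 225 lower), of which 341 were among the 1331, and 53 of the 115 called genes that the rule for named genes chose were lost. With the hair keratin mean as a covariate 19 genes were called (0.135%), and all 1331 kept their direction.

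**Figure D1:**
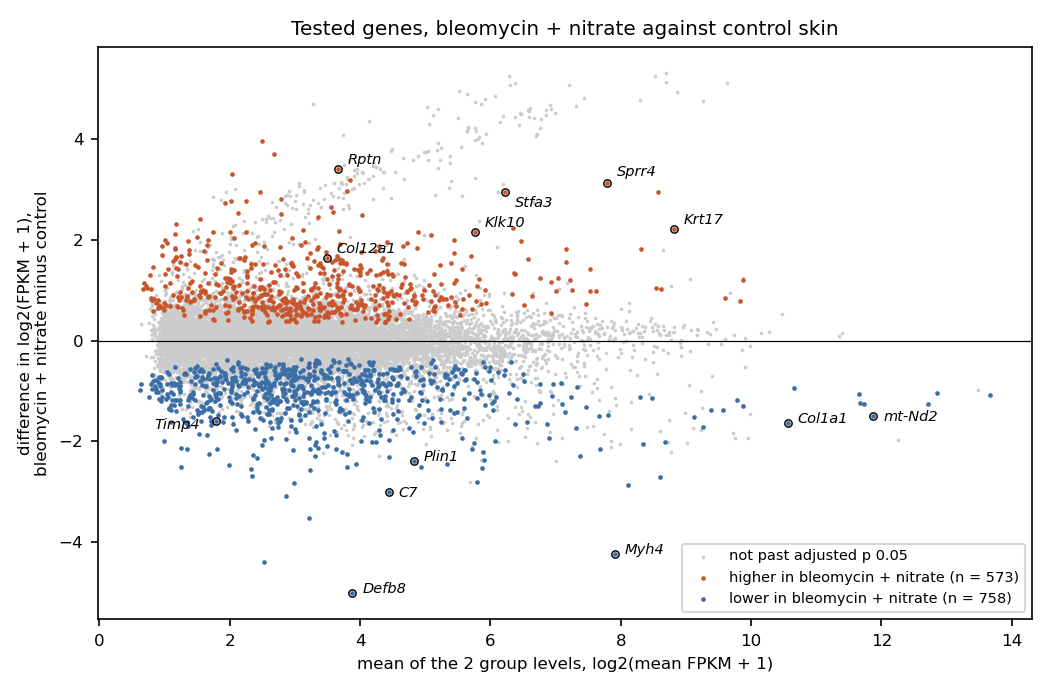
Each point is 1 of 14057 tested genes, with the mean level of the control and the bleomycin plus nitrate group on the x axis and the difference in log2(FPKM + 1), bleomycin plus nitrate minus control, on the y axis. The 573 genes called higher are red, the 758 called lower are blue, and circled genes are described in the text; the grey band at the upper right, which rises to a difference above 4, did not pass the test.

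Barrier repair genes of stressed keratinocytes had higher values with bleomycin plus nitrate. Of 40 genes in this list 26 passed the filter, and 9 of the 26 were called higher, against 4.08% of all tested genes. The filter fixed the direction of 3 of the 26, which reached 1 FPKM only in nitrate. With these included, all 26 estimates lay above 0 and 0 were called lower. The median difference was 2.11, against 0.014 over all tested genes. Krt17, a keratin of the follicle sheath and of wounded epidermis, had 143, 178 and 314 FPKM in control 1, 2 and 3 and 1158, 637 and 1073 FPKM in nitrate 1, 2 and 3, so every nitrate library was above every control. It rose by 2.20 ± 0.36 on the log2(FPKM + 1) scale (SE, limma adjusted p = 0.0168). Stfa3, a stefin that inhibits cysteine proteases, had 32.5, 9.96 and 40.5 FPKM in the controls and 186, 258 and 140.4 FPKM in the nitrate libraries. The groups lay far apart, with a rise of 2.94 ± 0.51 (limma adjusted p = 0.0184). Lce3c, a late cornified envelope protein, had 0.577, 1.15 and 0.203 FPKM in control and 5.48, 5.68 and 3.80 FPKM in nitrate, a rise of 1.89 ± 0.31 (limma adjusted p = 0.0168). All 3 nitrate libraries lay above the highest control.

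Sprr1a and Sprr1b encode small proline-rich proteins that are cross-linked into the cornified envelope. Sprr1a rose from 143 ± 105.6 to 1003 ± 458 FPKM (SD, n = 3 per group; 2.94 ± 0.52, limma adjusted p = 0.0189), and Sprr1b from 4.63 ± 5.36 to 35.6 ± 13.6 FPKM (3.18 ± 0.81, limma adjusted p = 0.0475). Il1f6, which encodes the alarmin IL-36 alpha, had 1.70, 0.943 and 1.43 FPKM in control and 6.11, 34.9 and 16.5 FPKM in nitrate, highest in nitrate 2 (2.82 ± 0.57, limma adjusted p = 0.0263). The other called members were Stfa2, Il1f8 (IL-36 beta) and Tgm1, a transglutaminase that cross-links the envelope. Members known best from wounds did not pass the test: Krt6a differed by 2.38 (limma adjusted p = 0.061), Krt16 by 2.86 (limma adjusted p = 0.097) and the calprotectin gene S100a9 by 3.38 ± 1.15 (limma adjusted p = 0.0947), with 9.77 to 87.6 FPKM in nitrate against 0.228 to 9.52 in control. The count of 9 became 0 without control 1 or without control 2, 1 without nitrate 3, and 6, 6 and 10 without control 3, nitrate 1 and nitrate 2. It was 4 with only the 6 libraries compared in the fit. With the hair keratin mean as covariate the list median was 2.54, and 1 member, Lce3c, was called. Reads of the near-identical Sprr, Stfa, Lce3 and Serpinb3 copies cannot be assigned with certainty to 1 gene, so single values in these families are uncertain.

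Sprr4, a further small proline-rich gene outside that list, was higher in every nitrate library than in any other library. It lies in mouse build GRCm38 at chr3:92500263-92500493 and had 50.96, 71.8 and 101.8 FPKM in control 1, 2 and 3, 182, 391 and 339 FPKM with bleomycin alone, and 829, 552 and 558 FPKM in nitrate 1, 2 and 3. Control, bleomycin and nitrate libraries formed 3 steps without overlap. The rise over control was 3.12 ± 0.35 (limma adjusted p = 0.00646), and it passed without any 1 of the 6 libraries (adjusted p of 0.00867 to 0.0382). In bleomycin alone the difference from the same controls was 1.99 (limma adjusted p = 0.015).

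Genes of the cornifying layers moved in both directions. In the epidermal differentiation list 6 of 22 tested genes rose and 1 fell (median 0.51), against 4.08% higher and 5.39% lower over all tested genes. Rptn, which encodes repetin of the cornified cell envelope, rose from 2.63, 2.04 and 2.82 FPKM to 26.4, 87.4 and 19.7 FPKM (3.40 ± 0.56, limma adjusted p = 0.0168). The 3 controls were nearly equal, and nitrate 2 was the highest. Casp14, the protease of keratinocyte cornification, rose from 12.8 ± 4.39 to 63.1 ± 28.8 FPKM (SD, n = 3; 2.15 ± 0.44, limma adjusted p = 0.0277), Klk7, a protease of desquamation, from 99.2 ± 30.5 to 222 ± 13.8 FPKM (1.20 ± 0.24, limma adjusted p = 0.0247), and Dsc1, a desmosomal cadherin, from 37.2 ± 14.98 to 82.95 ± 2.34 FPKM (1.21 ± 0.29, limma adjusted p = 0.0384). Flg (filaggrin, 2.17) and the filaggrin-processing protease Asprv1 (1.02) also rose, while the keratin Krt77 fell by 2.002. Lor (loricrin, -0.07), Krt10 (0.52) and Krt1 (1.80) did not pass. The list count of 6 became 0 without control 1 or control 2 and 1 without nitrate 3, was 7, 4 and 5 without control 3, nitrate 1 and nitrate 2, and was 1 with only the 6 libraries in the fit.

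Many of these genes are neighbours. The epidermal differentiation complex, taken here as chr3:90511034-93564643 of GRCm38 from S100a1 to S100a10, held 121 genes of the table, of which 59 were tested. Of those, 16 were called higher (27.1%, against 4.08% of all tested genes), 2 were called lower, and the median difference was 1.09. The higher genes were Sprr1a, Sprr1b, Sprr4, Lce3c, Lce1e, Lce1f, Lce1g, Lce1i, Lce1j, Lce6a, Rptn, Flg, S100a14, S100a16, 2210017I01Rik and 2310046K23Rik. The lower ones were S100a13 and 9130204L05Rik, the latter with 6.42, 51.3 and 29.9 FPKM in control and 0, 0 and 0.322 FPKM in nitrate (-4.38 ± 0.64, limma adjusted p = 0.0132). Since 9130204L05Rik reached 1 FPKM only in control, the filter fixed its direction.

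The promoters of 4 genes are shown because 2 of them belong to genes that rose together (Sprr1b and Sprr4) and 2 to collagen genes that fell together (Col1a2 and Col3a1, described further on). Each is the stretch of 200 bases directly upstream of the RefSeq gene start in GRCm38.p6, printed 5′ to 3′ on the gene's strand. They lie at chr3:92438780-92438979 (minus strand, Sprr1b), chr3:92500494-92500693 (minus strand, Sprr4), chr6:4505418-4505617 (plus strand, Col1a2) and chr1:45311338-45311537 (plus strand, Col3a1). Capitals mark matches, on both strands, to CCAAT (the CCAAT box), TGANTCA (the core bound by AP-1 factors) and TATAAA (the TATA box).
Sprr1b: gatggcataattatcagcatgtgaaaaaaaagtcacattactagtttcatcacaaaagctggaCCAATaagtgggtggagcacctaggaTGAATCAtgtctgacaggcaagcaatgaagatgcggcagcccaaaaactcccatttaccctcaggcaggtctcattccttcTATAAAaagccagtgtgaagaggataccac
Sprr4: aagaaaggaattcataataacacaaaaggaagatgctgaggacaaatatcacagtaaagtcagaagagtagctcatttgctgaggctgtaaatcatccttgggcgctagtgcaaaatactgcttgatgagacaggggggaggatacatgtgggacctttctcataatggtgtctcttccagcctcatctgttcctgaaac
Col1a2: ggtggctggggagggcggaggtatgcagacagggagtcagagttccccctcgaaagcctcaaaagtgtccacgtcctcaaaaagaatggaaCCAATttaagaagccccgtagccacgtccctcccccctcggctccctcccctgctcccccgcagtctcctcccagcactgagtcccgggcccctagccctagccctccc
Col3a1: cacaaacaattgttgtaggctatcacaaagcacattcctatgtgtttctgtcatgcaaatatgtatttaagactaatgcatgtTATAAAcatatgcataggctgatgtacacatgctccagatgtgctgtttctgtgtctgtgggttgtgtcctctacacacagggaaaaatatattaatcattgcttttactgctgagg
The Sprr1b stretch held 1 match to each motif, the Sprr4 stretch none, the Col1a2 stretch 1 CCAAT and the Col3a1 stretch 1 TATAAA, and none of the matches overlapped another. Among all 32851 RefSeq promoter stretches of this length 29.3% held CCAAT, 5.48% TGANTCA and 9.96% TATAAA. Of the 9 stress keratinocyte genes called higher 7 had an entry, and 2 of the 7 held each motif. Of the 14 collagen-list genes called lower 10 had an entry, with CCAAT in 3, TGANTCA in 0 and TATAAA in 1. A match describes letters and not binding.

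**Figure D2:**
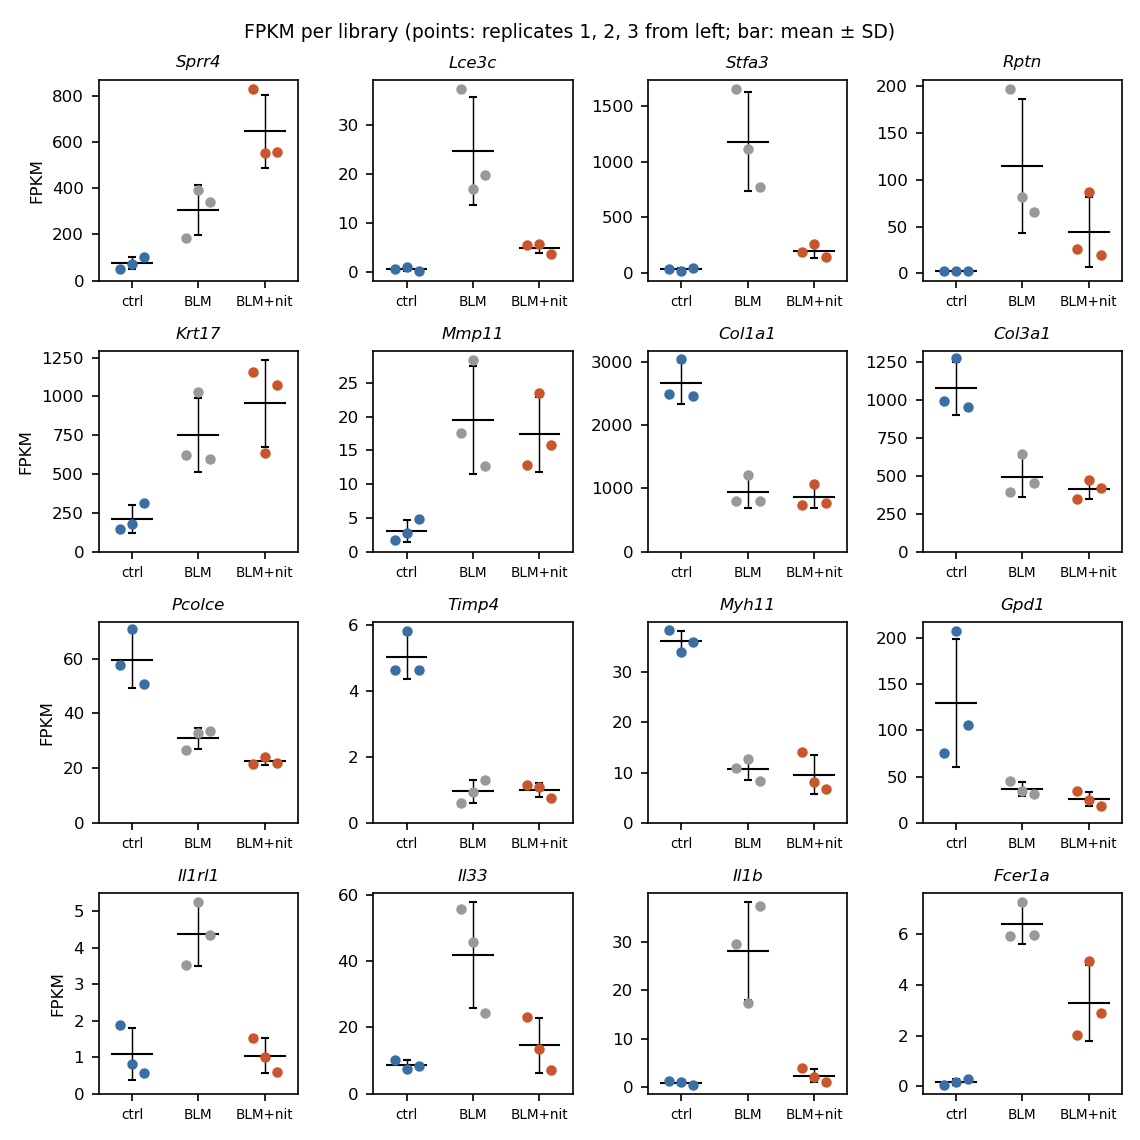
FPKM of 16 genes in each library, as points for replicates 1, 2 and 3 from left to right, with the mean (horizontal bar) ± SD of the 3 libraries of control (ctrl), bleomycin (BLM) and bleomycin plus nitrate (BLM+nit); every y axis is linear and has its own range. Sprr4 was highest with nitrate (552 to 829 FPKM), Col1a1 and Timp4 were low in both treated groups, and Il1rl1 and Il1b with nitrate (0.602 to 1.54 FPKM and 1.05 to 3.83 FPKM) overlapped with control.

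Collagen genes and their processing enzymes fell. Of 33 tested genes of the fibrillar collagen and procollagen processing list 14 were called lower and 1 higher, 20 had all nitrate values below all control values, and the median difference was -0.59. Over all tested genes 5.39% were called lower, 4.08% were called higher, and 18% had all nitrate values below all control values. Col1a1 encodes the main chain of type I collagen and lies at chr11:94936224-94953042 of GRCm38. It had 2483, 3048 and 2451 FPKM in control 1, 2 and 3, 792, 1214 and 805 FPKM with bleomycin alone, and 740.5, 1063 and 776 FPKM in nitrate 1, 2 and 3. All 3 nitrate libraries were below the lowest control and within or just below the range of the bleomycin libraries. Col1a1 fell by 1.64 ± 0.23 (limma adjusted p = 0.0119) and missed the threshold only without control 2 (adjusted p = 0.0535). Col1a2, the partner chain, had 853, 1077 and 878 FPKM in control and 261, 431 and 304 FPKM in nitrate (-1.52 ± 0.23, limma adjusted p = 0.0142). Col3a1, the chain of type III collagen, had 998, 1278 and 958 FPKM in control and 347, 475 and 421 FPKM in nitrate (-1.38 ± 0.22, limma adjusted p = 0.0162). In both, every nitrate library was below every control. Their adjusted p rose to 0.0623 and 0.0667 without control 2, and both also missed it without control 1 and without nitrate 3.

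Several genes of procollagen folding, processing and cross-linking fell with the chains. Pcolce, which enhances removal of the procollagen C-propeptide, had 57.5, 70.8 and 50.6 FPKM in control and 21.6, 24.1 and 21.7 FPKM in nitrate, less than the lowest control in every library. It fell by 1.36 ± 0.15 (limma adjusted p = 0.00646) and passed without any 1 library (adjusted p up to 0.0382). P4ha2, a prolyl hydroxylase subunit, fell from 8.63 ± 1.99 to 3.12 ± 0.282 FPKM (SD, n = 3; -1.21 ± 0.15, limma adjusted p = 0.00977) and also passed without any 1 library. The collagen chaperone genes Serpinh1 (-1.49) and Fkbp10 (-0.97), the lysyl hydroxylase Plod1 (-1.07), the prolyl 3-hydroxylase P3h1 (-0.74), Pcolce2 (-1.69), the cross-linking oxidase Loxl2 (-0.82) and the type V chains Col5a1 (-0.82), Col5a2 (-0.71) and Col5a3 (-0.995) were the other genes called lower. Col12a1, a collagen that decorates fibrils, was the exception: it had 3.12, 7.02 and 5.97 FPKM in control and 21.4, 22.97 and 11.99 FPKM in nitrate (1.64 ± 0.36, limma adjusted p = 0.0333), and it passed without nitrate 2 alone of the 6 libraries (adjusted p up to 0.0989 without control 1). The list count of 14 was 3 without control 1, 2 without control 2, 6 without nitrate 3, and 11, 9 and 15 without control 3, nitrate 1 and nitrate 2. It was 9 with only the 6 libraries in the fit. In bulk samples fewer cells of a type and less RNA per cell cannot be told apart. Hair keratin transcripts were highest in nitrate 1 and 3. With their mean as covariate 0 members of this list were called, the list median was -0.60 and Col1a1 differed by -1.64. The hair keratin mean itself differed between the groups, so this fit cannot tell hair content from group. The part of hair content was not tested.

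Other matrix genes moved less uniformly. Among 24 matricellular and matrix glycoprotein genes only Sparc, a collagen-binding glycoprotein of bone and skin, was called (lower, -1.18 ± 0.19, limma adjusted p = 0.0158; 1322 ± 176 to 586 ± 99.8 FPKM, SD, n = 3). Postn, which encodes periostin, had 43.2, 72.6 and 53.4 FPKM in control and 80.8, 96.96 and 90.4 FPKM in nitrate. Its groups did not overlap but it did not pass (0.68 ± 0.20, limma adjusted p = 0.0645), and Thbs1, encoding thrombospondin 1, had a difference of 1.31 ± 0.35 (limma adjusted p = 0.0515). Of 21 matrix proteases and inhibitors 4 fell and 1 rose, against 5.39% lower and 4.08% higher over all tested genes. Timp4, an inhibitor of metalloproteinases, had 4.64, 5.81 and 4.63 FPKM in control and 1.15, 1.08 and 0.758 FPKM in nitrate, a fall of 1.59 ± 0.17 (limma adjusted p = 0.00646). Mmp3, stromelysin 1, had 87.7, 57.9 and 65.2 FPKM in control and 29.4, 27.6 and 18.7 FPKM in nitrate (-1.44 ± 0.21, limma adjusted p = 0.0131). Both passed without any 1 library. Mmp27 (-1.03) and Adamts14 (-0.65), a procollagen N-propeptidase, fell too, and Mmp11, stromelysin 3, rose from 3.11 ± 1.61 to 17.4 ± 5.50 FPKM (2.19 ± 0.36, limma adjusted p = 0.0168), which missed the threshold without control 1, control 2 or nitrate 3 (0.0564 to 0.0703). Sparc missed it without the same 3 libraries, and without any 1 of them 2 of the 4 falls in the protease list remained called. Without nitrate 2 the matricellular list had 4 genes lower and the protease list 5.

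TGF-beta drives myofibroblast formation in fibrosis. In the myofibroblast and TGF-beta list 2 of 24 genes rose and 2 fell (median -0.42), against 4.08% higher and 5.39% lower over all tested genes. Inhba, which encodes the activin A subunit, had 0.972, 1.20 and 1.14 FPKM in control and 4.74, 4.06 and 2.5 FPKM in nitrate, a rise of 1.15 ± 0.20 (limma adjusted p = 0.0188). Skil, a negative regulator induced by TGF-beta, rose by 0.71 ± 0.15 (limma adjusted p = 0.0308). The contractile genes Myl9 and Cnn1 fell by 1.12 ± 0.19 and 1.15 ± 0.29 (limma adjusted p = 0.0185 and 0.0463). Acta2, the smooth muscle actin used as a myofibroblast marker, had 172, 132 and 138 FPKM in control and 95.6, 46.7 and 89.1 FPKM in nitrate, lower in every library but not past the test (-0.98 ± 0.30, limma adjusted p = 0.0694). Tgfb1 had 14.7, 10.8 and 9.59 FPKM against 16.9, 11.8 and 9.99 FPKM, and its groups overlapped (0.12 ± 0.21, limma adjusted p = 0.716). All 4 calls were lost without control 1 or control 2, and without nitrate 2 the list had 4 genes higher and 6 lower. With the hair keratin covariate its median was -0.23.

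Markers of the deeper layers of the biopsy fell with the collagen genes. Of 27 adipocyte genes 15 were called lower and 0 higher, 22 had non-overlapping lower values, and the median was -1.29. The shares over all tested genes were 5.39% called lower and 18% with non-overlapping lower values. Gpd1, which supplies glycerol phosphate for fat storage, had 75.6, 207 and 106 FPKM in control and 34.2, 24.6 and 18.3 FPKM in nitrate (-2.21 ± 0.37, limma adjusted p = 0.0168). Aqp7, the glycerol channel of fat cells, had 3.61, 7.02 and 4.23 FPKM in control and 1.29, 1.14 and 0.836 FPKM in nitrate, and it passed without any 1 library (-1.48 ± 0.21, limma adjusted p = 0.013). The lipases Pnpla2 and Lpl (-1.21 and -1.39), Plin1 of the lipid droplet (-2.38), Adipoq (adiponectin, -2.36) and Retn (resistin, -1.96) were among the called genes, while Lep (-1.13) and Pparg (-0.79) were not. The adipocyte count of 15 was 3, 1 and 7 without control 1, 2 and 3 and 12, 17 and 2 without nitrate 1, 2 and 3. With only the 6 libraries in the fit it was 3.

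The skeletal muscle list had the lowest median of the lists, and 22 of its 24 estimates lay below 0. In it 5 genes were called lower, against 5.39% of all tested genes. Myh4, the fast myosin heavy chain, had 689, 1808 and 751 FPKM in control and 44.4, 44.5 and 67.3 FPKM in nitrate (-4.23 ± 0.70, limma adjusted p = 0.0168), and Ampd1, Actn3, Casq1 and Pvalb fell by 2.28 to 2.86. The list as a whole varied within groups. Its mean log2(FPKM + 1) was 7.26, 7.91 and 7.25 in control and 5.50, 6.99 and 5.07 in nitrate, with nitrate 2 close to control, and 5 of 24 tested genes were called with a median of -1.96. That count was 20 without nitrate 2, 2 without control 3, 1 without nitrate 1, and 0 without control 1, control 2 or nitrate 3. It was 2 with only the 6 libraries in the fit, and with the hair keratin covariate the median was -1.04. Mstn, the muscle growth inhibitor myostatin, had 20.3, 46.0 and 25.0 FPKM in control and 0.685, 3.01 and 1.61 FPKM in nitrate (-3.51 ± 0.60, limma adjusted p = 0.0178; 0.0539 to 0.0727 without control 1, control 2 or nitrate 3).

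Vessel genes also had lower values in nitrate. Of 23 endothelial genes 10 fell and 1 rose (median -0.86), against 5.39% lower and 4.08% higher over all tested genes. Esam, an adhesion molecule of endothelial junctions, had 29.2, 25.3 and 25.9 FPKM in control and 12.7, 15.3 and 10.4 FPKM in nitrate (-1.02 ± 0.16, limma adjusted p = 0.0142), and Cdh5 (VE-cadherin) fell by 0.92 ± 0.18 (limma adjusted p = 0.0238). Eng, Sox17, Tek, Ackr1, Kdr, Flt1, Plvap and Tie1 were also called lower, by 0.86 to 1.58. Sox7, an endothelial transcription factor also found in other tissues, rose from 5.64 ± 0.324 to 12.6 ± 4.05 FPKM (0.997 ± 0.20, limma adjusted p = 0.0247; lost without control 1, control 2 or nitrate 3). The 10 became 0 without control 1 or control 2, 3 without control 3 or nitrate 3, 4 without nitrate 1 and 17 without nitrate 2, and 1 with only the 6 libraries in the fit. Among 15 smooth muscle and pericyte genes 5 fell (median -1.10; 2, 0 and 3 without control 1, 2 and 3, and 5, 8 and 3 without nitrate 1, 2 and 3). With the hair keratin covariate the smooth muscle median was -0.52 and 0 were called, and with only the 6 libraries in the fit 3 were. Myh11, smooth muscle myosin, had 38.3, 34.1 and 36.1 FPKM in control and 14.05, 8.07 and 6.72 FPKM in nitrate (-1.87 ± 0.24, limma adjusted p = 0.0107), a group difference much larger than the spread of the controls. The pericyte genes Rgs5 (-0.44) and Higd1b (-0.05) did not pass. Pmp22, a protein of Schwann cell myelin, fell by 1.16 ± 0.23 (limma adjusted p = 0.0264), a call that was lost without control 1, control 2, nitrate 1 or nitrate 3.

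Hair keratin genes had higher values in most nitrate libraries, but few passed the test. All 31 tested genes of the hair keratin list had estimates above 0 (median 4.33), but with values between 0.20 and 5.75 in the control means only Krt84 passed (2.76 ± 0.59, limma adjusted p = 0.0305; 0 called without control 1, control 2, nitrate 1 or nitrate 3). Of 19 anagen regulators 4 rose, led by Lgr5, the receptor of R-spondins on follicle stem cells, with 1.58, 1.90 and 2.10 FPKM in control, 1.45, 2.43 and 2.02 FPKM with bleomycin alone and 5.70, 3.97 and 5.46 FPKM in nitrate. The bleomycin libraries lay at the level of control, and every nitrate library was above them (1.07 ± 0.17, limma adjusted p = 0.0158 against control). Wnt10a (0.73), Foxq1 (1.29) and Ovol1 (1.76) were the other 3. The background for the lists here was 4.08% called higher and 5.39% called lower over all tested genes. Of the follicle stem cell and telogen list Sox9 rose from 6.03 ± 2.13 to 21.1 ± 5.67 FPKM (1.68 ± 0.30, limma adjusted p = 0.0191), as did Krt79 (1.57), Foxc1 (1.22) and Tbx1 (1.37), whereas Fgf18, a growth factor that keeps follicles at rest, fell from 3.86 ± 0.0984 to 1.20 ± 0.442 FPKM (-1.16 ± 0.16, limma adjusted p = 0.0124). Cd34, a marker of resting follicle stem cells that vessels and fibroblasts also carry, fell by 1.12 ± 0.18 (limma adjusted p = 0.0152).

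Some pigment and Wnt genes also rose. The melanocyte genes Tyrp1, Pmel, Dct and Kit rose, 4 of 10 tested, against 4.08% called higher over all tested genes. Tyrp1, an enzyme of melanin synthesis, had 1.39, 2.80 and 4.88 FPKM in control and 18.1, 8.46 and 47.8 FPKM in nitrate (2.46 ± 0.57, limma adjusted p = 0.0369), with the libraries in the same order as their hair keratin means within each group. Of 28 Wnt pathway genes 6 rose and 2 fell (median 0.62), against 4.08% higher and 5.39% lower over all tested genes. The receptor gene Fzd2 had 8.84, 9.89 and 8.97 FPKM in control, 8.66, 10.07 and 9.51 FPKM with bleomycin alone and 16.5, 14.5 and 18.5 FPKM in nitrate, again above both other groups in every library (0.77 ± 0.12, limma adjusted p = 0.014 against control). Fzd1 (1.33), Fzd7 (0.88), Wnt10a (0.73), Wnt11 (1.87) and the Wnt antagonist Sostdc1 (1.01) rose, and the agonist Rspo1 (-1.16) and the vascular receptor Fzd4 (-1.19) fell. Lef1 (1.26) and Axin2 (0.41), which are read as Wnt targets, did not pass. Each of these lists lost its higher calls without control 1 or control 2: the 4 anagen, 4 stem cell and telogen, 6 Wnt and 4 melanocyte calls all became 0. Without nitrate 1 they became 1, 1, 2 and 1, and without nitrate 3 they became 0, 0, 1 and 0. Without nitrate 2 they were 10, 5, 13 and 5, without control 3 they were 4, 3, 5 and 3, and with only the 6 libraries in the fit 1, 3, 4 and 0.

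**Figure D3:**
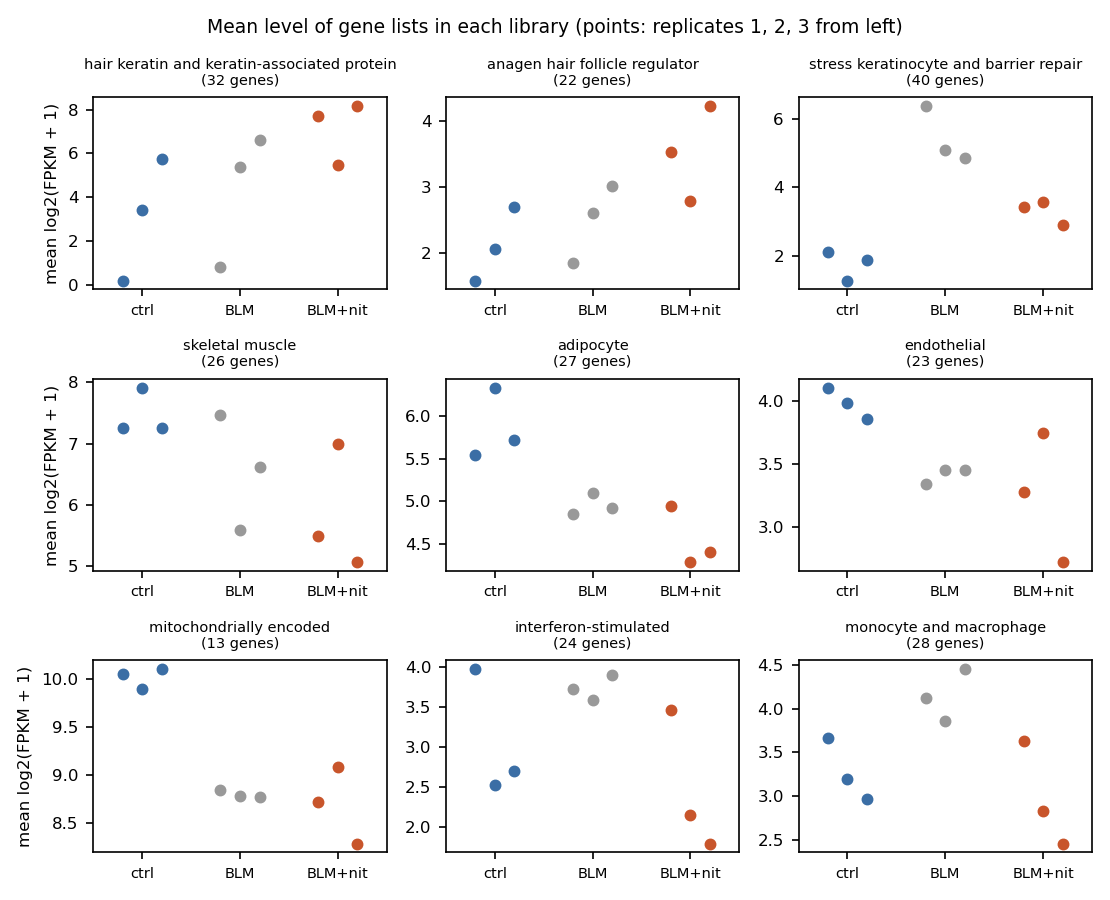
Mean log2(FPKM + 1) of 9 gene lists in each library (points for replicates 1, 2 and 3 from left to right within control, bleomycin and bleomycin plus nitrate). Hair keratin means spread from 0.20 to 5.75 in control and reached 5.48 to 8.16 with nitrate, whereas adipocyte, endothelial and mitochondrially encoded lists lay lower in all 3 nitrate libraries than in all 3 controls.

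Transcripts of the mitochondrial genome fell. They took 8.02%, 6.61% and 7.82% of reads in control 1, 2 and 3 and 4.10%, 4.49% and 2.84% in nitrate 1, 2 and 3. All 13 protein-coding mitochondrial genes had nitrate values below every control (median -1.26), and 9 passed, or 3 after quantile normalization. The shares over all tested genes were 18% with non-overlapping lower values and 5.39% called lower. mt-Nd2, a subunit of complex I, fell from 6662, 5691 and 6352 FPKM to 2332, 2778 and 1687 FPKM (-1.49 ± 0.20, limma adjusted p = 0.0109) and passed without any 1 library. The count of 9 was 1 without control 1 or control 2, 4 without nitrate 3, 7 without control 3 or nitrate 1, and 13 without nitrate 2, and was 3 with only the 6 libraries in the fit. Respiratory chain genes of the nucleus differed less. Cycs, cytochrome c, was the only one of 30 called (-0.57 ± 0.14, limma adjusted p = 0.0464), although 29 of 30 estimates were below 0, and it was lost without any 1 library except nitrate 2, where 13 were called. Among glycolytic and hypoxia genes Pfkfb3 and Ldha fell by 1.25 ± 0.28 and 1.12 ± 0.25 (limma adjusted p = 0.0333 and 0.0347), the 2 calls among 19, a count that was 6 without nitrate 2, 1 without control 3 and 0 without control 1, control 2, nitrate 1 or nitrate 3. Muscle and fat genes also had lower values in nitrate, although the muscle list mean of nitrate 2 was close to control. Their part in these values was not tested.

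Few of the tested inflammatory genes were called. The shares over all tested genes were 4.08% called higher and 5.39% called lower, and counts in lists this short cannot be told from them. The 6 tested neutrophil genes had a median of 0.75. Of 33 cytokine and chemokine genes 13 passed the filter, and 1 was called: Il1rn, the antagonist of the IL-1 receptor, with 5.98, 3.85 and 6.41 FPKM in control and 8.80, 9.19 and 9.67 FPKM in nitrate (0.70 ± 0.17, limma adjusted p = 0.0444; lost without control 1, control 2, nitrate 1 or nitrate 3). Il1b, a main inflammatory cytokine, had 1.24, 1.03 and 0.452 FPKM in control, 29.5, 17.4 and 37.3 FPKM with bleomycin alone and 3.83, 2.15 and 1.05 FPKM in nitrate. Nitrate values overlapped with control and all lay below bleomycin (0.75 ± 0.36 against control, limma adjusted p = 0.189). Cxcl5, a neutrophil-attracting chemokine below the filter, had at most 0.386 FPKM in control and 0.644 in nitrate. Of 22 neutrophil genes 6 were tested and 0 called, and of 27 monocyte and macrophage genes 0 were called (median -0.37), with Cd163, a scavenger receptor of tissue macrophages, at 7.401, 10.3 and 7.03 FPKM in control and 2.95, 3.73 and 1.11 FPKM in nitrate (-1.43 ± 0.38, limma adjusted p = 0.0506). The 9 tested MHC class II genes had 0 calls by limma and a median of 0.10. At an unadjusted p under 0.05, limma gave 2 neutrophil genes higher, 1 macrophage gene higher and 1 lower, and 0 MHC class II genes, and voom called 1 macrophage gene lower and none in the other lists. With the hair keratin covariate the medians were 0.33 for the cytokine and chemokine list, 1.26 for neutrophil, -0.21 for macrophage and -0.08 for MHC class II genes.

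Genes of the ST2 axis, which the series title names, did not pass in either direction: limma called 0 of 15 tested (of 29 in the list), with a median of 0.07. With 9.47% of all tested genes called, 0 among 15 cannot be told from that share. At an unadjusted p under 0.05, 2 were higher and 1 lower, and voom called 0. Il1rl1 had 1.90, 0.820 and 0.559 FPKM in control, 3.52, 5.24 and 4.36 FPKM with bleomycin alone and 1.54, 1.01 and 0.602 FPKM in nitrate. The nitrate libraries lay within the range of the controls, with a standard error of 0.26 around a difference near 0 (limma adjusted p = 0.995). Il33, its ligand, had 10.3, 7.36 and 8.51 FPKM in control, 55.6, 45.6 and 24.3 FPKM with bleomycin alone and 23.3, 13.5 and 7.05 FPKM in nitrate. Nitrate 1 and 2 were above control and nitrate 3 below it (0.55 ± 0.41, limma adjusted p = 0.382). Gata3, a transcription factor of type 2 lymphocytes that the hair follicle also expresses, had 15.4, 13.2 and 24.0 FPKM in control and 36.8, 22.4 and 36.6 FPKM in nitrate (0.84 ± 0.33, limma adjusted p = 0.128). Il4 differed by -0.11 ± 0.15 (limma adjusted p = 0.637), and Areg, the repair growth factor amphiregulin, by 1.36 ± 0.55 (limma adjusted p = 0.132). Foxp3 and Il13 were below the filter, with at most 0.151 and 0.317 FPKM in the 6 libraries.

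Among lymphocyte and mast cell genes Trbc2, Cd5 and Fcer1a were called higher than control, and the filter fixed the direction of Cd5 and Fcer1a. The B cell gene Ighm was called lower. The background was 4.08% called higher and 5.39% lower over all tested genes. Of 3 tested B cell and plasma cell genes Sdc1 was called higher (1.24) and Ighm lower. Ighm fell from 40.26 ± 17.32 to 12.75 ± 4.745 FPKM (SD; -1.56 ± 0.35, limma adjusted p = 0.0339), with every nitrate value below every control. Its call was lost without control 1, control 2, control 3 or nitrate 3 (0.0597 to 0.112). Trbc2, which encodes a constant region of the T cell receptor beta chain, had 9.45, 8.51 and 10.5 FPKM in control and 16.2, 19.9 and 20.3 FPKM in nitrate (0.92 ± 0.15, limma adjusted p = 0.0152), and Cd5 rose by 1.08 ± 0.22 (limma adjusted p = 0.0254), these being 2 of 10 tested T cell genes of 28 in the list. Of the 10 T cell estimates 6 lay above 0 and 4 below, with 0 called lower. Cd5 reached 1 FPKM only in nitrate, so the filter fixed its direction. Trbc2 missed the threshold without control 1, control 2 or nitrate 3 (0.0548 to 0.0667), and both genes were then not called. Cd4, below the filter, had 0.389, 0.914 and 0.528 FPKM in control, 4.67, 5.17 and 5.23 FPKM with bleomycin alone and 1.82, 1.88 and 0.834 FPKM in nitrate. Its nitrate values lay between the other groups except that nitrate 3 fell within control. Fcer1a, a chain of the IgE receptor, had 0.0655, 0.179 and 0.288 FPKM in control, 5.90, 7.23 and 5.97 FPKM with bleomycin alone and 2.02, 4.92 and 2.90 FPKM in nitrate. It rose by 1.81 ± 0.23 (limma adjusted p = 0.0103; 0.0501 without control 2), again with its direction fixed by the filter. The mast cell proteases Cpa3 (0.61), Cma1 (0.59) and Tpsb2 (0.59 ± 0.26) did not pass. Of 11 tested mast cell and basophil genes 2 were called higher, Fcer1a and Kit, and 0 lower. In that list 8 estimates lay above 0 and 3 below, and without control 2 it had 0 calls. Epcam, which Langerhans cells share with the follicle epithelium, rose from 19.1, 22.2 and 30.1 FPKM to 69.7, 66.3 and 72.8 FPKM (1.53 ± 0.20, limma adjusted p = 0.0107; 0.0535 without control 2).

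Nitric oxide and arginine genes moved in both directions, 3 higher and 3 lower of 22 tested (0 higher without any 1 library other than nitrate 2). The shares over all tested genes were 4.08% higher and 5.39% lower. The receptor subunit of nitric oxide, the guanylate cyclase Gucy1a1, had 7.09, 5.60 and 7.23 FPKM in control and 3.18, 2.82 and 1.86 FPKM in nitrate (-1.09 ± 0.18, limma adjusted p = 0.0168). Nos3, the endothelial nitric oxide synthase, fell from 7.59 ± 1.93 to 3.22 ± 0.969 FPKM (-1.03 ± 0.23, limma adjusted p = 0.0346), and Suox, sulfite oxidase, a molybdenum enzyme, by 0.87 ± 0.18 (limma adjusted p = 0.0283). Ass1, which makes arginine precursor from citrulline, rose by 1.92, the arginine transporter Slc7a1 by 0.82 and Gch1, which makes the synthase cofactor, by 0.49. Nos2, the inducible synthase, was below the filter. The 3 falls became 0 without control 1 or control 2 and 1 without nitrate 1 or nitrate 3. They were 8 lower, beside 5 higher, without nitrate 2, and were 2 lower and 0 higher with only the 6 libraries in the fit. The limma adjusted p for Gucy1a1 was 0.0616 without control 1 and 0.0535 without control 2. Endothelial and smooth muscle markers, whose cells express Nos3 and Gucy1a1, fell in the same libraries, and their part in these values was not tested.

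Bleomycin breaks DNA, and 3 of 21 p53 targets rose while 1 fell. Over all tested genes, the background for the 3 lists here, 4.08% were called higher and 5.39% lower. Pmaip1 (Noxa) had 1.48, 1.28 and 2.07 FPKM in control, 13.5, 9.88 and 11.2 FPKM with bleomycin alone and 4.70, 3.45 and 3.81 FPKM in nitrate (0.94 ± 0.16, limma adjusted p = 0.0189). The 3 groups did not overlap. Plk2 (0.78) and Perp (0.84), a desmosomal protein of epidermis, rose, Ccng1 fell by 1.61, and Cdkn1a (0.35), Mdm2 (-0.17) and Bax (0.05) did not pass. Of 20 NRF2 genes Gpx2, a glutathione peroxidase, rose by 1.99 ± 0.29 (limma adjusted p = 0.013; direction fixed by the filter), and Cat and Fth1 fell by 0.43 and 0.94. The immediate early genes Egr2 (0.92) and Ier3 (1.52) rose, 2 of 26, with Ier3 between 11.4 and 11.6 FPKM in control and between 34.0 and 36.8 in nitrate. Without control 1 or control 2 none of these p53, NRF2 and immediate early genes was called. Without nitrate 3 only Gpx2 was. Without nitrate 2 the p53 list had 6 genes higher, the NRF2 list 3 higher and 4 lower, and the immediate early list 6 higher.

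Complement genes, a defensin and a cytochrome P450 also fell. C7, a subunit of the membrane attack complex, had 46.7, 62.4 and 41.8 FPKM in control and 2.28, 19.6 and 2.77 FPKM in nitrate, highest in nitrate 2 (-2.997 ± 0.67, limma adjusted p = 0.0338; lost without each library except nitrate 2, up to 0.124). C6 (-1.51) and Cd55 (-1.04), which protects cells from complement, fell with it, 3 of 18 tested (1, 0 and 2 without control 1, 2 and 3, and 5, 5 and 1 without nitrate 1, 2 and 3). All 18 estimates of the complement list lay below 0, with a median of -0.58, and 5.39% of all tested genes were called lower. Defb8, a beta-defensin, showed the largest fall of the named genes: 40.8, 91.6 and 95.6 FPKM in control, 0, 4.43 and 2.77 FPKM with bleomycin alone and 4.37, 0 and 1.10 FPKM in nitrate (-5.01 ± 0.76, limma adjusted p = 0.0142; 0.0625 without control 2 and 0.0562 without nitrate 3). Cyp2e1, a cytochrome P450 of liver and fat, fell from 135 ± 31.3 to 21.8 ± 17.5 FPKM (-2.80 ± 0.52, limma adjusted p = 0.0213; lost without control 1, control 2 or nitrate 3).

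Bleomycin alone and bleomycin plus nitrate were both measured against the same 3 controls, so their differences are not independent and are given only side by side. The stress keratinocyte median was 4.22 with bleomycin alone and 2.11 with added nitrate. For the inflammatory list the medians were 1.32 and -0.07, for neutrophil genes 2.53 and 0.75, for macrophage genes 0.99 and -0.37, for MHC class II genes 1.14 and 0.10, and for the ST2 list 0.59 and 0.07. Col1a1 differed from control by -1.53 and -1.64, Col3a1 by -1.14 and -1.38, and Timp4 by -1.64 and -1.59. Col12a1 differed by 3.08 and 1.64, and Postn by 1.6 and 0.68. Lgr5 differed by 0.04 and 1.07, and Fzd2 by 0.02 and 0.77. Whether these pairs differ from each other was not tested here.

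**Figure D4:**
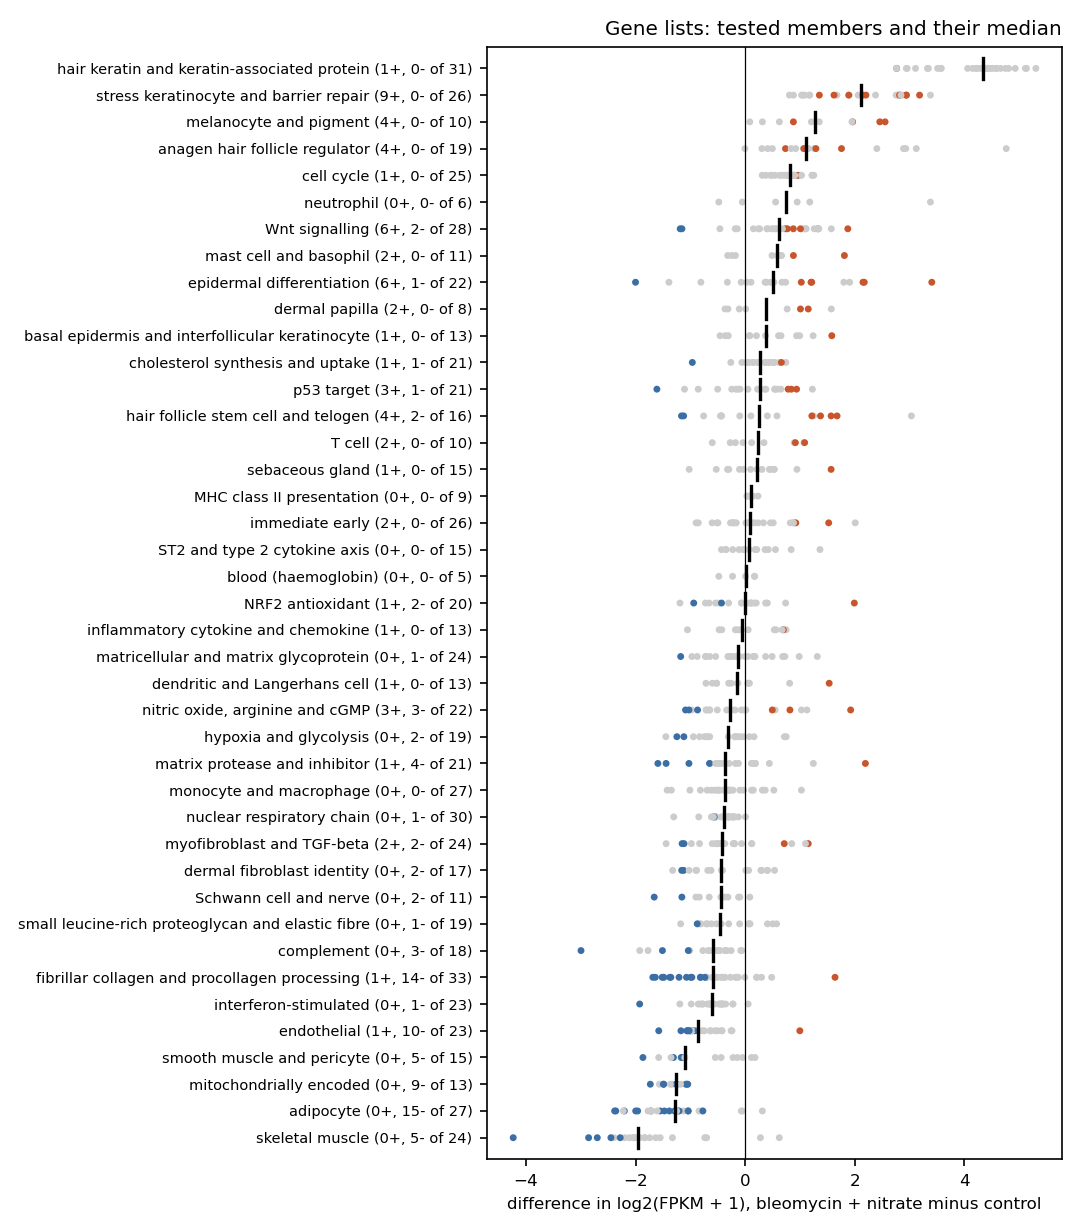
Each grey, red (called higher) or blue (called lower) point is a tested member of a gene list, placed by its difference in log2(FPKM + 1), bleomycin plus nitrate minus control, and the black bar is the list median; lists with at least 5 tested members are shown with their counts called higher (+) and lower (-). Medians run from -1.96 for skeletal muscle and -1.29 for adipocyte genes to 2.11 for stress keratinocyte and 4.33 for hair keratin genes, and are -0.07 for inflammatory, 0.07 for ST2, 0.10 for MHC class II and 0.23 for T cell genes.

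**Figure D5:**
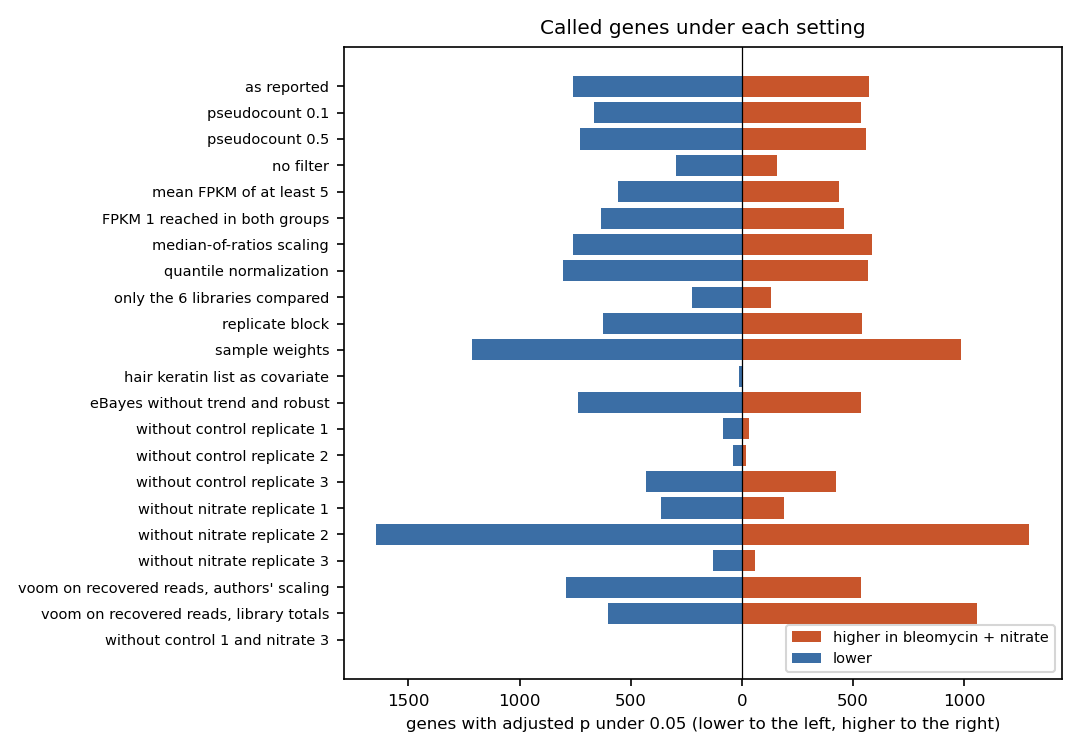
Number of genes with adjusted p under 0.05 under each setting of the analysis, higher in bleomycin plus nitrate to the right and lower to the left of 0. The bars are shortest without control 2 (16 higher, 42 lower) and with the hair keratin covariate (6 and 13), empty without both control 1 and nitrate 3, and longest without nitrate 2 (1292 and 1643).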

How the data were processed

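The deposited table gives FPKM per gene and library, computed by the authors on build mm10 per the submitters' processing notes. Per the labels' protocols, total RNA from a column kit went into SMARTer mRNA libraries. The sources used here do not give the aligner, counting tool or strand setting. FPKM times gene length fell on whole multiples of a library's smallest step for 99.918% to 99.991% of values (tolerance 0.01), which gave whole reads per gene and an authors' effective library size of 0.916 to 1.09 times the reads. Intervals and the limit of 3 reads cover counting error only.

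Differences in log2(FPKM + 1) were estimated for 3 group means over all 9 libraries together by limma 3.58.1 (R 4.3.3; eBayes, trend and robust), two-sided, with Benjamini-Hochberg adjustment over 14057 genes. The fit was tested on simulated data. Fold changes are differences on this scale and understate changes of low genes. Each of the 102 duplicated symbols was represented by its most abundant gene. The members, the 42 gene lists and the rules were chosen with earlier results of these data known. Named genes were the 12 genes called with the greatest rise and the 12 with the greatest fall, with non-overlapping groups and a mean of at least 5 FPKM, up to 4 members per list with the smallest p, and 18 set genes; others are named to complete a called list or were chosen after their values were seen. Alternatives are other pseudocounts, filters, scalings, fits and left-out libraries. Voom on the recovered reads and leaving out control 1 with nitrate 3 were chosen after seeing the data. Promoters are from RefSeq, GRCm38.p6. Figures were drawn with matplotlib 3.10.9.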

Additional observations from a re-analysis of the deposited data

How the results depend on the processing

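Of the 115 called named genes 0 changed direction under any setting. Their groups did not overlap, so leaving out libraries or changing the pseudocount could not reverse a direction. Total, higher and lower calls (1331, 573 and 758) all stayed within 1.5 times under 9 of the settings. They were 453, 158 and 295 with no filter, 357, 132 and 225 with only the 6 libraries compared in the fit, 2198, 984 and 1214 with sample weights, and 19, 6 and 13 with the hair keratin list as covariate. They were 623, 253 and 370 with an absolute log2 difference of at least 1, and 1658, 1058 and 600 by voom with library totals (1328, 537 and 791 with the authors' scaling). Leaving out 1 library gave 58 to 2935 calls, 16 to 1292 of them higher and 42 to 1643 lower. Without control 1 and nitrate 3 there were 0, 0 and 0 calls by limma (2359 genes at an unadjusted p under 0.05, against 4507 with all libraries). Calls kept in all 6 single omissions numbered 52. With the replicate number as a block, 1164 genes were called (539 higher, 625 lower; 949 shared), 20 named calls were lost and 7 gained. The numbers were not treated as pairs: same-numbered control and nitrate deviations correlated at 0.008, 0.219 and 0.462, against -0.458 to 0.286 for other pairings. The cause of these shifts was not tested. Depth limits low genes most, since a count of 0 allows up to 3 reads.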

Other observations

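The 52 genes that passed limma's test (adjusted p under 0.05) without any 1 of the 6 libraries, 14 higher and 38 lower, were looked at after their values were seen, and those described here were chosen from them. Some of the 52 reached 1 FPKM in only 1 group, so the filter fixed their direction. Among the higher genes these were AC183097.2, Gm13536 and Gm33424. Among the lower genes they were Mir10b, Gpha2, Gm4265, Kcna5, Aldh1l2, Creb3l3, Serpina3k, mt-Tr, Tmem267 and Bcat1. Klk10, a kallikrein protease of the epidermis, had 23.6, 24.9 and 25.6 FPKM in control, 90.5, 78.2 and 58.9 FPKM with bleomycin alone and 115, 131 and 97.2 FPKM with added nitrate (2.15 ± 0.18, limma adjusted p = 0.00383). Rbp2, a retinol-binding protein gene, rose by 1.86 ± 0.22 (limma adjusted p = 0.00945), with 3.94 to 5.14 FPKM in control and 17.1 to 20.1 in nitrate. Cst6, a protease inhibitor of the cornifying epidermis, rose from 73.1, 71.0 and 80.2 FPKM to 279.5, 318 and 214 FPKM (1.82 ± 0.18, limma adjusted p = 0.00646), and Atp12a, a proton pump, rose by 2.504 ± 0.29. Cdkn2b, an inhibitor of the cell cycle kinases CDK4 and CDK6, had 4.66, 4.41 and 7.2 FPKM in control and 17.0, 15.8 and 16.9 FPKM in nitrate (1.48 ± 0.16, limma adjusted p = 0.00646). In the separate cell cycle list all 25 tested genes had estimates above 0, with a median of 0.82, or 0.56 with the hair keratin covariate. Of these 1 was called higher, against 4.08% of all tested genes, 13 without nitrate 2 and 0 without any 1 other library.

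Among the 38 lower genes were the angiotensin precursor Agt, with 19.5, 20.9 and 16.2 FPKM in control and 5.82, 3.44 and 2.501 FPKM in nitrate (-2.06 ± 0.23, limma adjusted p = 0.00646), and the angiotensin receptor Agtr1a (-1.18 ± 0.16, limma adjusted p = 0.0107). Pycr1, an enzyme of proline synthesis, had 5.73, 6.15 and 5.83 FPKM in control and 1.63, 0.860 and 1.82 FPKM in nitrate (-1.52 ± 0.16, limma adjusted p = 0.00646). Aldh1l2, a mitochondrial folate enzyme (-1.61 ± 0.16; it reached 1 FPKM only in control, so the filter fixed its direction), Creb3l1, a transcription factor of the secretory pathway that acts on collagen genes (-1.18 ± 0.15), and Clec11a, a secreted growth factor (-1.48 ± 0.16), fell as well. Clec11a had 13.1 to 15.3 FPKM in control, 1.26 to 2.40 with bleomycin alone and 4.17 to 4.48 with added nitrate, so its groups did not overlap.

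Interferon-stimulated genes differed within both groups. Their list mean in log2(FPKM + 1) was 3.98, 2.52 and 2.70 in control 1, 2 and 3 and 3.46, 2.15 and 1.79 in nitrate 1, 2 and 3, against 3.59 to 3.91 with bleomycin alone. Control 1 and nitrate 1 were the highest of their groups. Of 23 tested members 22 had estimates below 0. The median was -0.60, or -0.27 with the hair keratin covariate, against 0.71 with bleomycin alone. Of the members 1, Ifi27l2a, was called (-1.93 ± 0.48, limma adjusted p = 0.0443; lost without control 1, control 2, nitrate 2 or nitrate 3). The share called lower over all tested genes was 5.39%.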
